A study of Homo sapiens with 2 samples.

Results

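Expression of 9 genes of heme synthesis was compared between an untreated culture and a culture exposed to eltrombopag, both labelled HL60, a line of human cells grown from a promyelocytic leukaemia. The genes are 7 enzymes, ALAS1, ALAD, UROS, UROD, CPOX, PPOX and FECH, and the 2 mitochondrial iron carriers SLC25A37 and SLC25A28. They were chosen by their place in the pathway, with earlier results of these data known. All 29 probe sets that the platform annotation gives to 1 of them alone were used, out of 19775 genes so annotated on the array. Eltrombopag, a drug that activates the receptor for thrombopoietin and is also able to chelate iron, was given at 3 µg/ml for 36 h, and both cultures grew in RPMI with 10% fetal bovine serum. No culture time or vehicle is recorded for the untreated cells, so drug, time and vehicle cannot be told apart. Each group holds 1 array, so no test of the treatment is possible and every difference below is between 2 arrays, without a replicate check.

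Heme is built partly in the mitochondrion and partly in the cytosol. ALAS1 joins glycine and succinyl-CoA in the mitochondrial matrix and is the rate-limiting enzyme outside red cell precursors, where its synthesis and stability are held down by heme itself. ALAD, UROS and UROD carry the pathway through the cytosol, CPOX and PPOX return it to the mitochondrial intermembrane space and inner membrane, and FECH, an inner membrane enzyme with an iron-sulfur cluster, inserts iron into protoporphyrin. SLC25A37 (mitoferrin 1) and SLC25A28 (mitoferrin 2) bring iron into the matrix. Promyelocytes need heme for myeloperoxidase, the abundant enzyme of their granules.

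Each probe set has a MAS5 signal, its brightness on a linear scale, and a ratio is the log2 of the eltrombopag over the untreated signal. A floor was set at a signal of 56.9, the 60th percentile of both arrays pooled. The brightest probe set stands for a gene. All 9 members lay above the floor on both arrays, as did 19 of their 29 probe sets, while the other 10 lay below it on both. Among the 9597 genes above the floor on both arrays the median log2 ratio was -0.12, with quartiles of -0.37 and 0.11, so a gene at 0 lies somewhat above the middle of these arrays. The only measure of error here is the disagreement between probe sets of the same gene. For the 2 brightest probe sets of 4373 genes, log2 ratios differed by a median of 0.21, and by 0.76 at the 95th percentile. This is no error between cultures.

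The labels were also set against marker genes. Of 15 promyelocyte genes on the array, 12 lay above the floor, among them MPO (myeloperoxidase) at 1556 untreated and 1467 with eltrombopag, while ELANE, LYZ and SPI1, named after their values were seen, lay below it on both. Of 15 plasma cell genes, 14 lay above the floor, and JCHAIN, the immunoglobulin joining chain, had signals of 7972 and 4866 (named after its values were seen). The signals of the plasma cell list summed to 21716 untreated and to 12993 with eltrombopag. Of the 14 genes, 6 were at least 2-fold lower, against 2.27% of all genes above the floor on at least 1 array. CDKN2A, a gene that HL60 cells are known to have lost, had signals of 1116 and 782. CD34, also named afterwards, and 6 of the other 7 stem cell genes lay below the floor, although the label names the cell type as hematopoietic stem. The arrays are therefore called the untreated and the eltrombopag array, and the part of these marker differences in the values below was not tested. In a bulk sample, fewer cells of a type and less RNA per cell cannot be told apart.

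Upstream sequences are shown for the members at the ends of the range of ratios that have a RefSeq promoter window and could be printed: ALAS1 and SLC25A28, which were higher with eltrombopag, and UROD and FECH, which were lower. Each line holds the 150 bases before the start site, 5′ to 3′ on the gene's own strand, from RefSeq (GRCh38.p14). Capitals mark every match to the motifs searched.
ALAS1 (chr3:52197933-52198082, plus strand): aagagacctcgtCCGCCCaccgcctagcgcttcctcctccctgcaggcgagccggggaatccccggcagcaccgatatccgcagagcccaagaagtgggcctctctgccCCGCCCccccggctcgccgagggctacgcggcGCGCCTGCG
SLC25A28 (chr10:99620440-99620589, minus strand): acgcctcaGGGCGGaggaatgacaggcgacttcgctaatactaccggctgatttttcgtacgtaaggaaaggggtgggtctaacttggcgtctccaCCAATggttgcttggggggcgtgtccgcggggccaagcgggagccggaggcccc
UROD (chr1:45012104-45012253, plus strand): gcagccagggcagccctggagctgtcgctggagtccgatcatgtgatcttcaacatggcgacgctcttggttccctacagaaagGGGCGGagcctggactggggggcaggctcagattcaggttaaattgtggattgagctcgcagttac
FECH (chr18:57586703-57586852, minus strand): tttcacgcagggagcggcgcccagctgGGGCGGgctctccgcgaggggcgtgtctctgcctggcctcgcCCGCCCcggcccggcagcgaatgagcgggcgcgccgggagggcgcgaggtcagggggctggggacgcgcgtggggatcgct

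The 7 motifs were searched on both strands in 9 windows of 7 members, from 250 bases before to 50 after the start. ALAD and PPOX have 2 windows each, and the 2 windows of each gene overlap. The SP motif GGGCGG was found in 8 of 9 member windows and in 45.0% of all 35116 windows. The motif of NRF1, a factor of mitochondrial biogenesis that is distinct from NFE2L2, was found in the ALAS1 window alone among the members and in 5.78% of all windows. Its matches there were GCGCCTGCGC, which begins 9 bases before the start and runs to its first base, so the last letter is not in the printed stretch, and GCGCATGCGC, which begins 22 bases into the transcript. The GATA motif AGATAA was found in CPOX and PPOX and in 10.3% of all windows, and the HIF motif ACGTG in the same genes and in 21.4%. The NFY motif CCAAT was found in 4 of 9 windows (34.6% of all), in ALAS1, SLC25A28, ALAD and PPOX. The ETS motif CCGGAAG was found in both ALAD windows (10.3% of all), at the same site in the stretch they share. The motif shared by BACH and NFE2 was found in 0 of 9 (0.416% of all). No match overlapped one of another motif. A match describes letters and not a bound factor, and windows for UROS and SLC25A37 are not shown.

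Along the pathway, the first enzyme and the later enzymes differed in opposite directions. ALAS1 was higher with eltrombopag, the 6 enzymes after it were lower, and both iron carriers were higher. In all, 6 of 9 members had a ratio below 0, against 63.4% of the 10313 genes measured on at least 1 array, so the count by itself is close to the background. The other 3 lay above 0, against 36.6%. Over the 19 member probe sets above the floor on both arrays, 8 had a ratio below 0, against 62.4% of such probe sets, and 11 above, against 37.6%, but 7 of the 11 belong to SLC25A37. The members' median was -0.41, against -0.12 for all genes. Of the 9 members, 3 (UROD, UROS and FECH) were at least 1.5-fold lower, against 11.8% of measured genes, and 0 were at least 1.5-fold higher, against 3.49%. None of the members differed by 2-fold, which 2.27% of measured genes did on the lower side and 0.65% on the higher side. Ratios of all genes depend on how the arrays are scaled: after quantile normalization 51.4% of measured genes lay below 0 and 7.54% were at least 1.5-fold lower, and 2 members, UROD and UROS, were at least 1.5-fold lower.

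**Figure D1:**
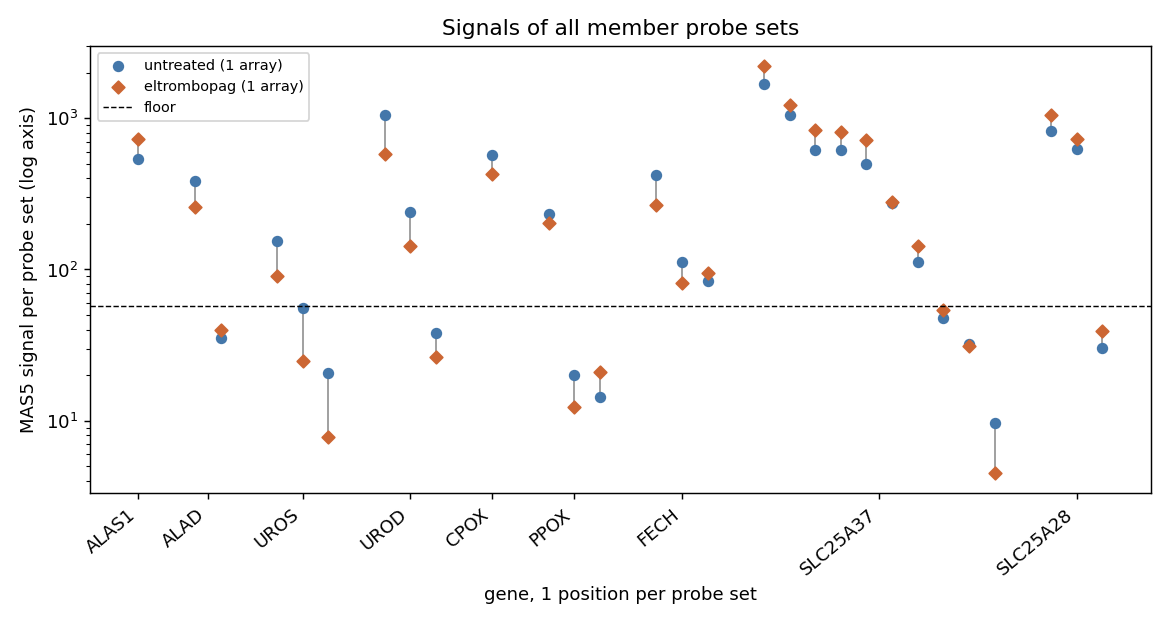
MAS5 signals of the 29 member probe sets on a log axis, grouped by gene, with circles for the untreated and diamonds for the eltrombopag array (1 array each) and a dashed line at the floor of 56.9. The diamond lies above the circle for ALAS1 and below it for the brightest probe sets of ALAD, UROS, UROD, CPOX, PPOX and FECH, and 10 probe sets lie under the line on both arrays.

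ALAS1, which commits glycine and succinyl-CoA to the pathway, had a signal of 535.0 in the untreated and 730.9 in the eltrombopag array. It was 1.37-fold higher, a log2 ratio of 0.45, and 93.6% of the genes above the floor on both arrays had a lower ratio. This value rests on 1 probe set, with the suffix _s_at, so ALAS1 has no second measurement on these arrays. ALAS2, the enzyme of red cell precursors that does the same step, lay below the floor on both arrays, at 24.2 and 21.3.

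The 3 cytosolic enzymes were all lower with eltrombopag, with a median log2 ratio of -0.78. ALAD, which joins 2 molecules of aminolevulinate to porphobilinogen and carries zinc, had signals of 383.7 and 258.4. It was 1.49-fold lower, just short of 1.5-fold. Its other probe set lay below the floor on both arrays, at 35.4 and 39.6.

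UROS, which closes the porphyrin ring, had signals of 155.1 untreated and 90.1 with eltrombopag and was 1.72-fold lower. The remaining UROS probe sets were dimmer than the floor on both arrays, with signals of 56.0 and 24.8 in one and 20.7 and 7.83 in the other. They too were lower with eltrombopag, but signals in this range carry large relative error.

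UROD, which takes carboxyl groups off the ring, had the lowest ratio of the 9 members. Its brightest probe set had signals of 1044 untreated and 579.1 with eltrombopag, or 1.80-fold lower, a log2 ratio of -0.85. The second probe set, at 239.2 and 143.8, was 1.66-fold lower. The 2 log2 ratios differed by 0.12, less than the median disagreement of 0.21 between probe sets of a gene. Only 4.16% of the genes above the floor on both arrays had a lower ratio than UROD.

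The 3 later mitochondrial enzymes had a median log2 ratio of -0.41. CPOX, which oxidises coproporphyrinogen in the intermembrane space, had signals of 569.7 and 427.7 in its single probe set and was 1.33-fold lower. PPOX, which makes protoporphyrin, had signals of 233.5 and 202.9 and was 1.15-fold lower. Relative to the median of all genes its log2 ratio was -0.08, and 41.0% of genes had a lower ratio, so PPOX stood near the middle of the arrays. Its dimmer probe sets, both below the floor, went in opposite directions, from 14.4 to 21.0 and from 20.1 to 12.2.

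FECH, the last enzyme, had probe sets that disagreed. The brightest had signals of 422.2 untreated and 266.8 with eltrombopag and was 1.58-fold lower. The second, at 111.6 and 81.8, was 1.36-fold lower. The dimmest, at 83.5 and 95.2, was 1.14-fold higher, and the log2 ratios spanned 0.85 from the lowest to the highest. The mean over these 3 probe sets was -0.31, so FECH was below 1.5-fold when each counted equally. Quantile normalization and lowess also took its brightest probe set below 1.5-fold, with log2 ratios of -0.53 and -0.54.

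**Figure D2:**
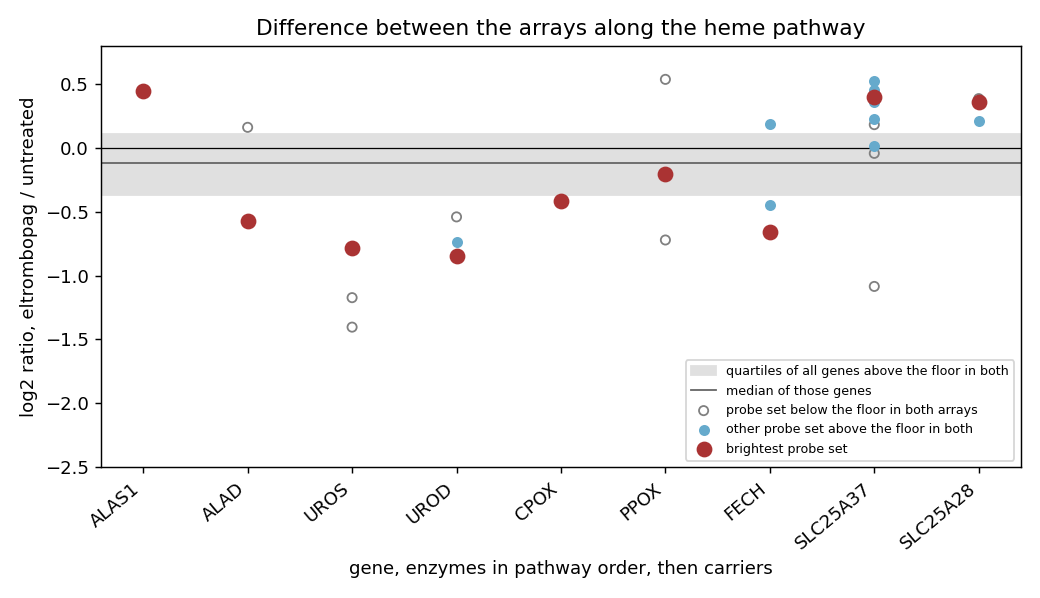
Log2 ratio of eltrombopag over untreated for each member probe set, with the enzymes in pathway order followed by the carriers; large points are the brightest probe sets, small filled points other probe sets above the floor on both arrays and open points those below it. The grey band spans the quartiles of all genes (-0.37 to 0.11); the brightest probe sets of ALAS1, SLC25A37 and SLC25A28 lie above it, that of PPOX lies inside it, and those of the other 5 enzymes lie below it.

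Both iron carriers were higher in the eltrombopag array, in all 9 of their probe sets above the floor. SLC25A37, the carrier most abundant in red cell precursors, had signals of 1677 and 2208 in its brightest probe set and was 1.32-fold higher. Its other 6 probe sets above the floor were higher by 1.01-fold to 1.44-fold. The smallest of these differences, from 276.1 to 279.0, is close to none, and the largest was from 499.3 to 716.8. These 7 probe sets read the same RNA sample and are not replicates. Its 3 probe sets below the floor on both arrays had log2 ratios of 0.18, -0.04 and -1.09.

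SLC25A28, the carrier found in most tissues, had signals of 820.5 and 1054 and was 1.28-fold higher, and its second probe set, at 623.8 and 723.7, was 1.16-fold higher. Its remaining probe set lay below the floor on both arrays, at 30.1 and 39.4. The share of genes with a lower ratio was 91.9% for SLC25A37 and 90.5% for SLC25A28.

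**Figure D3:**
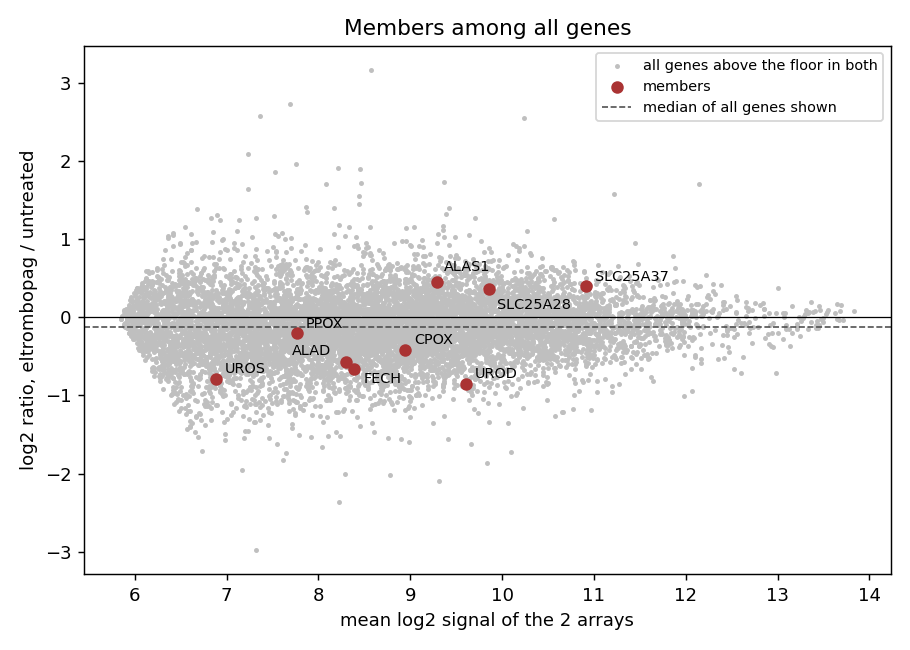
Log2 ratio of eltrombopag over untreated against mean log2 signal for the 9597 genes above the floor on both arrays (grey, dashed line at their median of -0.12), with the 9 members in red. The members lie inside the cloud of other genes, with ALAS1, SLC25A37 and SLC25A28 in its upper part and UROD and UROS in its lower part.

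In order of ratio the members ran from ALAS1 through SLC25A37 and SLC25A28 to PPOX, CPOX, ALAD, FECH, UROS and UROD. The 3 highest lay within 0.09 of each other on the log2 scale, less than the usual disagreement between probe sets, so their order is not resolved. From PPOX down, neighbours were 0.07 to 0.21 apart, which is about that disagreement or less. The widest gap, 0.56, lay between SLC25A28 and PPOX. It was above the median disagreement but within its range, which reached 0.595 at the 90th percentile. ALAS1 and UROD, taken because they stand at the ends of this order, differed by 1.30, a value that scaling each array by a constant does not alter. By location, the cytosolic members had a median of -0.78 and the mitochondrial ones 0.08, but the latter splits into ALAS1 and the carriers on the higher side and CPOX, PPOX and FECH on the lower.

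Genes that move heme, its precursors and its building blocks were mostly lower on the deposited scale, close to the array as a whole. Of 14 measured members of this list, 11 had a ratio below 0, against 63.4% of measured genes, and the median was -0.12, as for all genes. After median centring and after quantile normalization 7 lay below 0, against 57.5% and 51.4% of measured genes. SLC48A1, which carries heme out of lysosomes, was 2.01-fold lower, from 177.1 to 87.9, and its second probe set was lower too, with a log2 ratio of -1.27. HEBP2 and HEBP1, relatives that bind heme, had log2 ratios of -0.83 and -0.46, and TMEM14C, which takes porphyrin precursors into the matrix, -0.54. ABCB10, known to stabilise SLC25A37, had -0.20. SLC25A38, which brings glycine in for ALAS, had -0.05 and SLC25A39, which brings in glutathione, -0.02. FLVCR1, described as a heme exporter, had 0.19 and ABCB6, a porphyrin transporter, 0.16.

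Among 7 measured genes that control ALAS enzymes, 4 had a ratio below 0, against 63.4% of measured genes, and the median was -0.07. CLPP, the protease partner of CLPX, was lower, from 388.6 to 206.9, a log2 ratio of -0.91. CLPX, the unfoldase that activates ALAS and also targets it for breakdown, had -0.07, and LONP1, a protease that degrades ALAS1, had 0.04. NRF1 had -0.39 in its brightest probe set and -0.04 in the one that differed least. PPARGC1B, a coactivator, had 0.14, ESRRA had -0.20 and 0.32 in its 2 probe sets, and PPARGC1A, known to induce ALAS1 in liver, and named after its values were seen, lay below the floor.

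Of 6 measured genes that break down or sense heme, 4 lay below 0, against 63.4% of measured genes, with a median of -0.26. BLVRA, the reductase that turns biliverdin to bilirubin, was the 1 member past 1.5-fold, from 230.1 to 364.2, a log2 ratio of 0.66 in its brightest probe set and as little as 0.18 in another. HMOX2, the constitutive heme oxygenase, had -0.44, and HMOX1, the inducible one, lay below the floor on both arrays, at 21.0 and 14.7. BLVRB lay below it too, at 49.0 and 24.1. BACH1 and BACH2, repressors that bind heme, had -0.34 and -0.31.

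Beside the members, 3 related groups were read in the same way. Of 35 measured SLC25 carriers, 26 had a ratio below 0, against 63.4% of measured genes, and 6 were at least 1.5-fold lower, against 11.8%, with a median of -0.30. The first count was 23 after median centring and 21 after quantile normalization and after lowess. The share of all measured genes below 0 also fell, to 57.5% after median centring, 51.4% after quantile normalization and 52.9% after lowess. Among the 35 carriers, 2 had a higher ratio than SLC25A37 and 3, SLC25A37 included, a higher one than SLC25A28. SLC25A4, the adenine nucleotide carrier, had the lowest ratio at -0.82. SLC25A42, SLC25A15 and SLC25A24, carriers of coenzyme A, ornithine and adenine nucleotides, had -0.81, -0.79 and -0.68. Mitochondrial iron-sulfur cluster assembly shares the matrix iron with FECH. The list used here also holds genes of cytosolic assembly. It had 17 of 21 measured genes below 0, against 63.4% of measured genes, and a median of -0.30. That count was 14 after median centring and after quantile normalization and 13 after lowess. In it NUBPL, FDX1, FDX2 and BOLA3 had ratios of -0.90, -0.85, -0.84 and -0.62. Of 14 measured genes of iron uptake, storage and export, 11 lay below 0, against 63.4% of measured genes, with a median of -0.18. The number below 0 was 8 after quantile normalization and after lowess. TFRC, the transferrin receptor that supplies iron to the cell, was 3.24-fold higher in its brightest probe set, from 2517 to 8162. Its log2 ratio was 1.70 there and 1.08 in another probe set. SLC39A8 and NCOA4 had log2 ratios of -0.625 and -0.42. SLC11A2 had 0.54, with -0.18 in another probe set. These groups are set side by side without a test, since each value is a single pair of arrays.

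**Figure D4:**
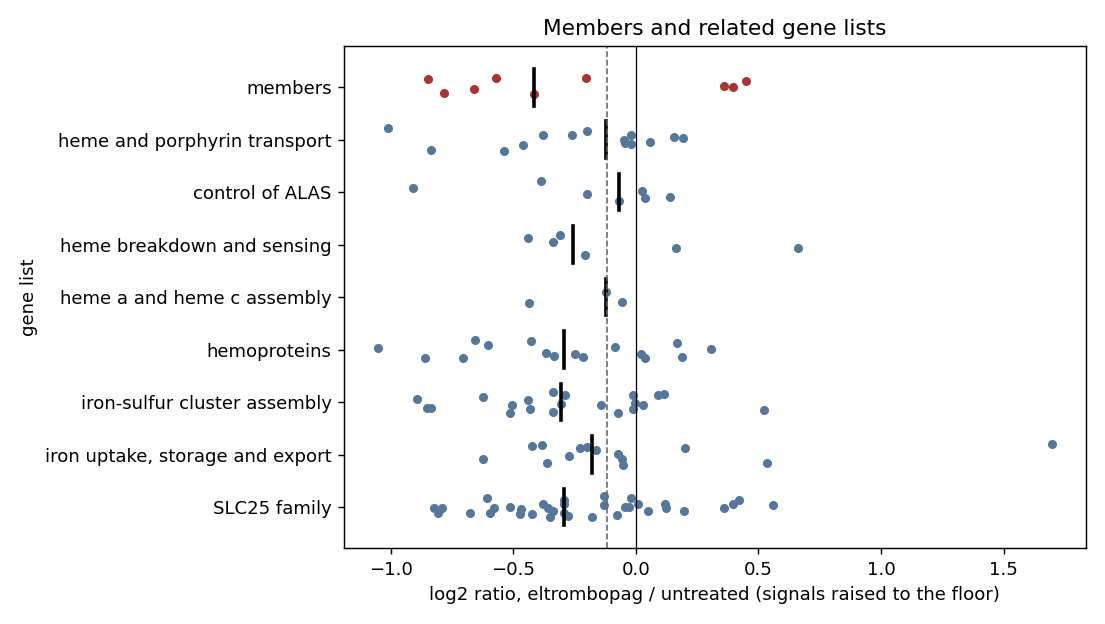
Log2 ratios of eltrombopag over untreated for the members (red) and 8 related gene lists (blue), 1 point per gene measured on at least 1 array with signals raised to the floor; black bars are list medians and the dashed line is the median of all genes, -0.12. The members lie on both sides of 0, with 6 lower and 3 higher, and the farthest point to the right is TFRC at 1.70.

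The members' signs were the same under each of 9 other ways of processing the arrays in which a member could be measured, although several of these could not alter them. The 3 other floors return the same values for members above them, and averaging returns the same values for ALAS1 and CPOX, which have 1 probe set each. The 3 other scalings did move the values, and so did the mean over all probe sets for members with several. The ranges that follow cover all settings. The mean over all probe sets gave the end nearest to 0 for SLC25A37, SLC25A28, UROD, UROS, FECH, ALAD and PPOX. ALAS1 ranged from 0.45 to 0.55, SLC25A37 from 0.24 to 0.50 and SLC25A28 from 0.19 to 0.44. UROD ranged from -0.85 to -0.53, UROS from -0.78 to -0.26 and FECH from -0.66 to -0.31. ALAD ranged from -0.57 to -0.29, CPOX from -0.41 to -0.30 and PPOX from -0.20 to -0.07. The sizes depended on the setting: the number of members at least 1.5-fold lower was 2 after quantile normalization and after lowess, 0 with the mean over all probe sets and 1 once those ending in _x_at or _s_at were left out, a setting that leaves out ALAS1, UROS and PPOX.

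**Figure D5:**
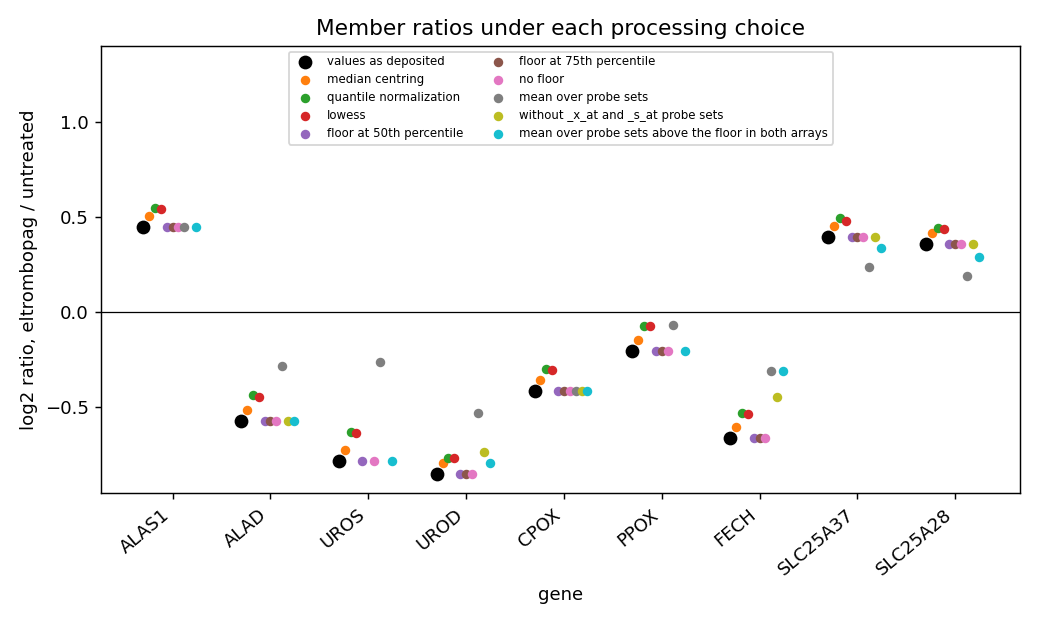
Log2 ratio of each member on the values as deposited (large black points) and under 9 other ways of processing the arrays (coloured points). The points of a gene stay on its side of 0, and the mean over probe sets lies nearest to 0 for UROS, at -0.26, and for UROD, at -0.53.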

How the data were processed

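Transcripts were measured on 1 array per group, labelled with biotin; RNA was extracted with Trizol, per the labels' protocols. The authors deposited 1 signal intensity per probe set, on a linear scale, made with MAS5 per the submitters' processing notes; its version, its scaling and any detection calls: not given in the sources used here. Each array was corrected for background on its own, which leaves dim signals imprecise, and the number of arrays limits the precision. Of 54613 probe sets, 41091 name 1 gene in the platform annotation, 1801 name several and stay unnamed, and 11721 are not listed; RefSeq identifiers matched for 41037 and changed 0 symbols. Signals below the floor (56.91) were set to it before the log2 step. Counts and medians cover genes above the floor on at least 1 array. No test was made with 1 sample per group. Calculations used Python, pandas and statsmodels, and the script was tested on simulated data. The members and lists were chosen with earlier results of these data known. All members are named, with up to 4 genes of each related list by size of ratio and a fixed panel; genes outside this rule are marked. Alternatives were median centring, quantile normalization, lowess (span 0.3), floors at the 50th or 75th percentile or none, the mean over probe sets, and leaving out probe sets that end in _x_at or _s_at. Some listed genes were not analysed here.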

Additional observations from a re-analysis of the deposited data

How the results depend on the processing

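The members' signs were the same under 8 alternatives and 1 added after seeing the data, the mean over probe sets above the floor in both arrays. With no replicates, a value was taken as moved when it shifted by more than 0.21 on the log2 scale, the spread between probe sets of a gene. The count of members at least 1.5-fold lower, 3 on the deposited scale, was 0 at thresholds of 2-fold and 3-fold, 0 when probe sets were averaged and 1 when those ending in _x_at or _s_at were left out. It was 2 after quantile normalization, after lowess, under the highest floor and with the mean over probe sets above the floor in both arrays, and FECH passed 1.5-fold in 4 of 9 settings. The median of cytosolic minus that of mitochondrial members, -0.86, became -0.35 with the mean over probe sets, in which probe sets at the floor count as no difference, and -0.63 when those endings were left out. The share of all measured genes below 0 was 63.4% as deposited, 57.5% after median centring, 51.4% after quantile normalization and 52.9% after lowess. The count below 0 among heme transport genes, 11, was 7 after median centring and after quantile normalization. Among the 3 genes of heme a and heme c assembly it went from 3 to 1 after quantile normalization and after lowess, and their median from -0.12 to -0.39 when those endings were left out. That setting, which tests fewer genes, also gave 2 of the heme breakdown, 11 of the iron-sulfur and 5 of the iron uptake genes below 0. With the floor at the 75th percentile UROS was not measured. No paired analysis was possible because each group holds 1 sample.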

Other observations

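Proteins that carry heme were read beside the enzymes that make it. Of 16 measured hemoproteins and their partner subunits, 11 had a ratio below 0, against 63.4% of measured genes, and 5 were at least 1.5-fold lower, against 11.8%, with a median log2 ratio of -0.29. CYBA, the partner subunit of the heme-bearing NADPH oxidase protein, was 2.07-fold lower, from 1020 to 492.0, but had a log2 ratio of 0.02 in another probe set. EPX, eosinophil peroxidase, had -0.86. CYC1 and CYCS, the c-type cytochromes of the respiratory chain, had -0.70 and -0.66, with 0.28 in another CYCS probe set. MPO had -0.08, with 0.26 in another probe set. CAT, catalase, had 0.17, with 0.44 in another, and CYBB lay below the floor on both arrays. COX15 and COX10, which make heme a, had -0.44 and -0.12, with 0.005 in another COX15 probe set. HCCS, which attaches heme to c-type cytochromes, had -0.06, with -0.33 in another probe set. The median of these 3 genes, -0.12, turned to 0.03 after quantile normalization and 0.02 after lowess.

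Genes of red cell precursors, the main users of heme, were mostly dim. Of 12 on the array, 5 lay above the floor on at least 1 array. NFE2, HBD and EPOR had log2 ratios of -1.06, -0.93 and -0.66, with 0.001 in another EPOR probe set. GATA1 lay above the floor in the eltrombopag array alone, at 53.2 and 71.4, and HBB in the untreated array alone, at 84.2 and 52.5. Of 12 measured promyelocyte genes, 8 had a ratio below 0, against 63.4% of measured genes, and 4 above, against 36.6%. The signals of the list summed to 17765 untreated and 18092 with eltrombopag. SRGN and MYB, named after their values were seen, held most of these sums, with 7160 and 4349 untreated and 7685 and 5855 with eltrombopag. The sums therefore say little about the rest of the list. CEBPA was 2.93-fold and CSF3R 2.25-fold lower, while CTSG and RNASE2 had log2 ratios of -0.84 and -0.76. MYB, AZU1, SERPINB1 and SRGN, named after their values were seen, had 0.43, 0.26, 0.20 and 0.10. Probe sets above the floor on both arrays spanned -0.88 to 0.38 for SRGN and -0.13 to 0.41 for SERPINB1. Of the plasma cell genes, IRF4, TNFRSF17, SLAMF7 and FKBP11 had the lowest ratios, at -2.37, -2.10, -2.01 and -1.86. Probe sets of a gene disagreed here: another SLAMF7 probe set had -0.385, and those of FKBP11 spanned -2.17 to -0.69. CD27, named after its values were seen, lay below the floor. B-cell, T and NK cell, and fibroblast and epithelial lists had 4 of 9, 2 of 12 and 5 of 12 genes above the floor.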
